A study of Drosophila melanogaster with 4 samples.

Results

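The Mediator complex is represented here by 29 genes, which were taken from the 15222 gene features of the count files by FlyBase symbol: every symbol that begins with MED and a number, together with skd, kto, CycC and Cdk8. Of these, 10 were placed in the head module, 8 in the middle, 1 (MED14) apart as the scaffold, 6 in the tail and 4 in the kinase module. The placement follows the usual textbook scheme, in which MED27, MED28 and MED30 are placed differently by different authors. Transcripts were counted in total RNA of wing imaginal discs of Drosophila melanogaster, the larval epithelia that become wing and notum. Discs were dissected off wandering larvae of the third instar. There were 2 wild-type libraries, from strain yw, and 2 wtsP2 libraries, for which the labels also give strain yw. wtsP2 is an allele of the gene warts (wts), whose product is the Hippo pathway kinase that holds the coactivator Yorkie in check. The labels do not say whether the larvae were homozygous, of which sex they were, or whether libraries with the same genotype had separate larvae behind them, so a p-value reflects library-to-library spread that may be technical.

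Mediator links transcription factors bound to enhancers with RNA polymerase II at promoters. The head and middle modules contact the polymerase, the tail receives most activators, MED14 runs through the complex as its backbone, and the kinase module joins and leaves and can keep the polymerase out. In the wing disc the kinase module subunits skuld (skd, the fly Med13) and kohtalo (kto, the fly Med12) are known for their part in the response to Wingless and in keeping cells to their compartment. Yorkie acts through DNA-binding partners at enhancers, so comparing wtsP2 discs with wild-type ones asks which transcripts, including those of the general machinery, differ when Warts is impaired.

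The wild-type libraries held 2112468 and 696952 counts and those of wtsP2 3520970 and 3846682, and the Mediator genes took 3864, 1106, 7145 and 7924 of them. A level is a count scaled to 1000000 counts of the TMM-adjusted library size (CPM), and levels of different genes are compared only per kilobase of the length in the count files. The wts gene was counted 46 and 0 times in wild-type and 48 and 24 times in wtsP2 libraries, too few to check the genotype labels. The 9 matched wing disc markers summed to 2019 and 2077 CPM in wild type against 3450 and 2832 in wtsP2. Of them 6 were above in both wtsP2 libraries and 2 below, where 32.3% and 15.1% of tested genes were. One of those below was vg, with a log2 fold change of -0.96 ± 0.42. The markers ap and rn had no matching identifier. Summed levels of fat body, haemocyte, tracheal and salivary gland markers differed between the groups, while those of muscle and myoblast markers overlapped. No tested marker of these tissues passed an edgeR adjusted p of 0.05, where 0 of the 7278 tested genes passed in either direction. This does not set the markers apart from other genes. The summed level of the 6 fat body markers was 18601 and 17136 CPM in wild type against 853 and 1238 in wtsP2. All 6 were lower in both wtsP2 libraries than in both wild-type libraries, where 15.1% of tested genes were. The 7 matched haemocyte markers summed to 517 and 711 CPM against 165 and 251. The 4 matched tracheal markers summed to 440 and 417 CPM against 2582 and 3058. The 6 salivary gland markers summed to 368 and 270 CPM against 5.16 and 1.39, with 3 of them at 0 in both wtsP2 libraries. The 5 matched muscle and myoblast markers summed to 188 and 425 CPM against 193 and 180. Their sum hides opposite directions: 2 of the 5 were above in both wtsP2 libraries and 3 below. Among tested genes 32.3% were above and 15.1% below. The part of these tissues in the Mediator values was not tested. In whole discs, fewer cells of a type and less RNA per cell cannot be told apart.

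Averaged over the 4 libraries, the levels of the Mediator genes ran from 8.85 CPM per kilobase for MED30 to 56.7 for MED31, a small middle-module subunit. MED26, a metazoan subunit that in human cells recruits elongation factors, followed at 54.2, and MED14 was at rank 9 of the 29, at 29.8. MED31, MED26 and MED9, the first 3 in this order, did not differ beyond their spread over libraries. The reads of MED9 cannot be given to it alone, since the overlapping feature CG42518 has the same counts. MED31 overlaps slx1, and both had 43 counts in the second wild-type library. MED26 ran from 30.3 to 81.5 CPM per kilobase, a span that takes in MED15 (29.0 to 40.6) only in part and MED31 (46.3 to 77.3) wholly. MED14 varied little between libraries, at 27.8 and 29.3 CPM per kilobase in the wild-type libraries and 26.2 and 35.7 in those of wtsP2. The median over the 29 genes was 27.1 and 14.0 CPM per kilobase in the wild-type libraries and 22.3 and 30.6 in those of wtsP2, so that the groups overlapped.

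**Figure D1:**
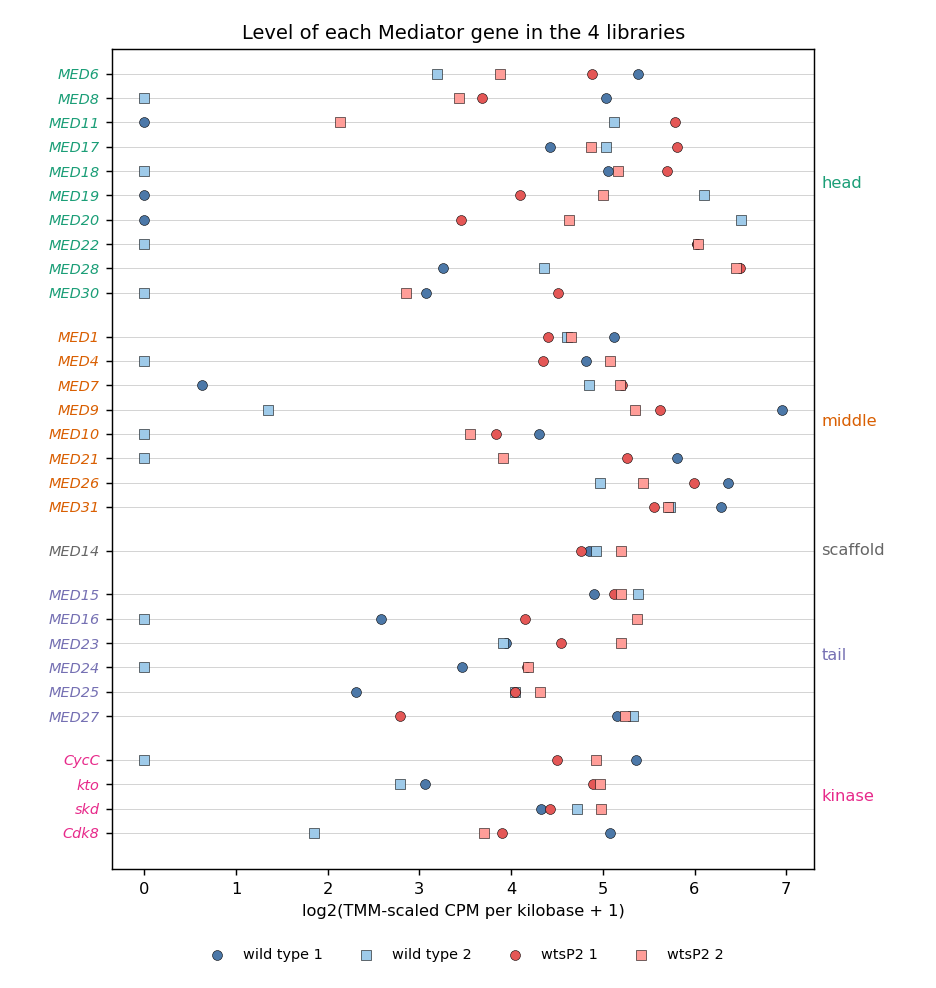
Level of each Mediator gene in each of the 4 libraries, as log2 of TMM-scaled CPM per kilobase plus 1, grouped by module (circles, replicate 1; squares, replicate 2; blue, wild type; red, wtsP2). The 13 points at 0 are all wild-type libraries, 10 of them the second one, while kto and MED28 show both wtsP2 points to the right of both wild-type points.

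Many of the members had no count in a single wild-type library. The first wild-type library had no count for 3 of the 29 genes (MED11, MED19 and MED20) and the second for 10 (MED8, MED18, MED22, MED30, MED4, MED10, MED21, MED16, MED24 and CycC), while every member was counted in both wtsP2 libraries. The shares, 10.3% and 34.5% of the members, were close to those of all tested genes, 9.21% and 33.0%, and in wtsP2 2.39% and 1.40% of tested genes were at 0. With each library thinned to the 696952 counts of the shallowest, the expected number of members at 0 would be 3.68 in the first wild-type library and 0.00965 and 0.217 in the wtsP2 libraries, against 10 found in the second wild-type library. A count of 0 there allows a level of up to 3.94 CPM (3 counts), and up to 1.46 CPM in the first wild-type library, for counting error only. Genes at 0 in 1 wild-type library could be well counted in the other. MED22, a head subunit, had 79 counts in the first wild-type library, which predicts 29.3 in the second, where it had 0. MED19 had 91 counts in the second, which predicts 245 in the first, where it had 0. Across the 29 genes, Pearson's r of log2 CPM was 0.0810 for the wild-type pair of libraries and 0.754 for the wtsP2 pair. Over all tested genes r was 0.564 for the wild-type pair and 0.867 for the wtsP2 pair. These values are a description, since the points share their library and genes are not independent replicates.

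All 29 members passed the filter on low counts, and none passed the test. At an edgeR adjusted p under 0.05, 0 of 29 Mediator genes differed between wtsP2 and wild type, where 0% of the 7278 tested genes were called higher and 0% lower. At an unadjusted p under 0.05 in edgeR 1 member, kto, was higher and 0 were lower, against 9.91% and 2.65% of all tested genes. DESeq2 and limma-voom also called 0 of the 29, where they called 1.3% and 1.69% of genes higher and 1.17% and 0.371% lower. Log2 fold changes of the members ran from -1.41 to 3.45 with a median of 0.31, beside 0.24 for all tested genes, and 18 of the 29 (62.1%) were positive, beside 58% of tested genes. The wtsP2 libraries both exceeded the wild-type libraries for 8 of the 29 (27.6%), where 32.3% of tested genes did so. For 1 member, MED31 (3.45%), both lay below, where 15.1% of tested genes did so. These shares are near or under the background and are no result about the complex. In 25 of the 29 genes the log2 fold change was within 1 standard error (SE) of 0. The other 4 were kto, MED28, MED23 and MED16. The share of all tested genes beyond 1 SE was not counted, so this number describes the members only.

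Single wild-type libraries decided the calls. Without the first wild-type library edgeR called 11 members higher and 2 lower, where 31.5% and 8.53% of tested genes were called, and 8 of these members had no wild-type count left. Without the second it called 7 members higher and 0 lower, where 12.3% and 5.67% of tested genes were called, and 3 of them had no wild-type count left. With either wtsP2 library left out it called 0 members, where 0.128% of tested genes were higher and 0.179% lower without the first, and 0.0386% and 0.193% without the second. kto, MED28 and MED16 were the members called higher in both fits that lacked a wild-type library. Without the first wild-type library, however, MED16 had no wild-type count left. The share of all tested genes called higher in both of these fits was not counted. In such a fit the remaining wild-type library has no partner, and its spread is taken from the wtsP2 pair.

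**Figure D2:**
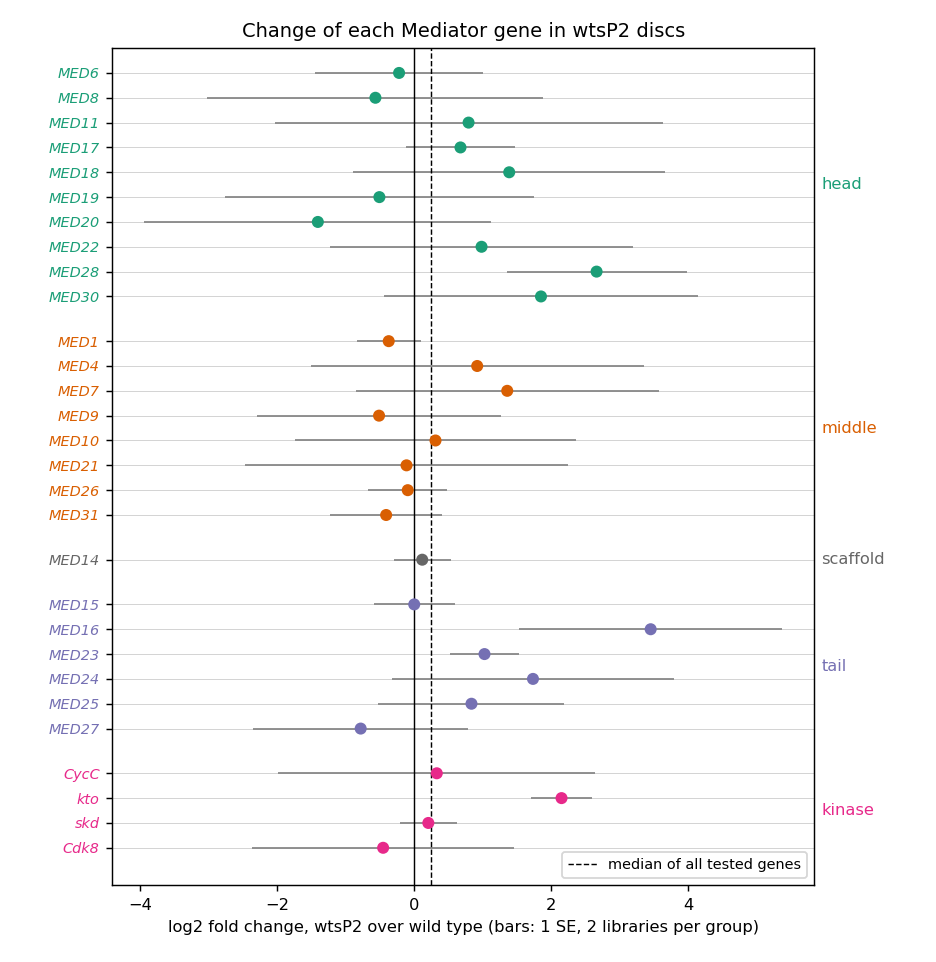
Log2 fold change of each Mediator gene in wtsP2 over wild-type discs, with bars of 1 SE (edgeR, 2 libraries per group), by module; the dashed line is the median of all tested genes, 0.24. The bars reach 2.83 for MED11 and are shortest, at 0.41 to 0.47, for skd, MED14, kto and MED1, of which kto alone lies away from 0, at 2.15.

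The kinase module joins a cyclin-dependent kinase (Cdk8), its cyclin (CycC) and the large proteins kto and skd. Of its 4 genes only kto and skd gave a usable estimate. The kto gene (FBgn0001324; chromosome 3L, 19829714 to 19838044, plus strand, build BDGP5 as in the count files) encodes the subunit that activates the kinase. It was counted 117 and 35 times in wild-type and 778 and 844 times in wtsP2 libraries, or 57.0 and 45.9 CPM against 223 and 235. Both wild-type libraries were low and both wtsP2 libraries high, with no overlap and little spread within either group. The log2 fold change was 2.15 ± 0.45 (SE, 2 libraries in each group), a 4.44-fold difference, with an edgeR unadjusted p of 0.00430 and an adjusted p of 0.368. kto passed in edgeR with either wild-type library left out, at 2.32 without the first (adjusted p = 0.000738) and 2.05 without the second (adjusted p = 0.000742). With the first or the second wtsP2 library left out it did not, at 2.23 and 2.12 (edgeR adjusted p = 1.00 for both). DESeq2 gave kto an adjusted p of 0.0696 and limma-voom 0.201.

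The partner gene skd (FBgn0003415; chromosome 3L, 20987228 to 21020524, minus strand) encodes the subunit that tethers the module to the core. It was counted 425 and 210 times in wild-type and 775 and 1197 times in wtsP2 libraries, or 207 and 275 CPM against 222 and 334. The groups overlapped, and the log2 fold change was 0.21 ± 0.41 (edgeR adjusted p = 0.976), with -0.11 without the second wtsP2 library. Within a library the ratio of kto to skd counts does not depend on scaling. It was 0.275 and 0.167 in the wild-type libraries and 1.00 and 0.705 in those of wtsP2. Per kilobase, the kto level was thus 0.386 and 0.234 of the skd level in wild type and 1.41 and 0.989 of it in wtsP2. The ratio of kto to Cdk8 counts was 1.16 and 11.7 against 10.7 and 13.0, where the groups overlapped and the second wild-type value rests on 3 counts of Cdk8. The ratio of kto to MED14 counts was 0.373 and 0.285 against 1.55 and 1.20. The ratio of skd to MED14 counts was 1.35 and 1.71 in the wild-type libraries and 1.54 and 1.70 in those of wtsP2. These pairs were chosen after their values were seen, and the differences between ratios were not tested.

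The smaller kinase module genes gave no usable estimate. CycC was counted 93 and 0 times in wild-type and 85 and 119 times in wtsP2 libraries, for a log2 fold change of 0.33 ± 2.31 (-0.61 without the second wild-type library). Cdk8, whose kinase is known in flies to act on the lipogenic factor SREBP, was counted 101 and 3 times in wild-type and 73 and 65 times in wtsP2 libraries, at -0.45 ± 1.91 (2.30 and -1.29 with the first and the second wild-type library left out). In both genes the first wild-type library lay above both wtsP2 libraries once scaled, and the second at 0 or at 3 counts.

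The scaffold gene MED14 (FBgn0035145; chromosome 3L, 593246 to 599242, plus strand) was measured well in every library. Its 314 and 123 counts in the wild-type libraries and 503 and 705 in those of wtsP2 came to 153 and 161 CPM against 144 and 197. The groups overlapped, and the log2 fold change was 0.12 ± 0.42 (edgeR adjusted p = 0.988). It was -0.12 without the second wtsP2 library.

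The tail module, which receives activators, had a median log2 fold change of 0.93 over 6 genes, and 4 of its 6 genes (MED16, MED23, MED24 and MED25) had both wtsP2 libraries above both wild-type libraries, beside 32.3% of tested genes. MED16, MED23 and MED24 form a common sub-assembly in mammalian Mediator. MED16 (FBgn0034707), which in flies has been tied to innate immune activation, was counted 28 and 0 times in wild-type and 161 and 398 times in wtsP2 libraries. That is 13.6 and 0 CPM against 46.2 and 111, a log2 fold change of 3.45 ± 1.92 (edgeR adjusted p = 0.630), which rests in part on the wild-type library at 0. Without the second wild-type library MED16 was at 2.56. Without the first, its wild-type side is the library with no count. MED23 was counted 171 and 62 times in wild-type and 450 and 740 times in wtsP2 libraries, at 83.3 and 81.3 CPM against 129 and 206. The wild-type values were nearly equal and the wtsP2 values both higher, and the log2 fold change was 1.03 ± 0.50 (edgeR adjusted p = 0.546; 1.36 with the first wtsP2 library left out and 0.66 with the second). These reads cannot be given to MED23 alone, since the overlapping feature CG3700 has the same counts.

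The other tail genes all lay within 1 SE of 0. MED24 was counted 66 and 0 times in wild-type and 190 and 196 times in wtsP2 libraries, at 1.73 ± 2.06 (0.80 without the second wild-type library). MED25, whose human counterpart is a target of viral and Ets-family activators, was counted 22 and 32 times in wild-type and 147 and 184 times in wtsP2 libraries. At 10.7 and 42.0 CPM against 42.1 and 51.3, its upper wild-type library all but touched the lower wtsP2 library, and the change was 0.84 ± 1.36 (2.16 without the second wild-type library and 0.16 without the first). MED15, a subunit known to serve Smad-dependent transcription, had 154, 80, 304 and 332 counts, or 75.0 and 105 CPM in the wild-type libraries and 87.2 and 92.6 in those of wtsP2. Its wtsP2 values lay between the wild-type values, at 0.00 ± 0.59. MED27 was counted 76 and 32 times in wild-type and 22 and 142 times in wtsP2 libraries, at -0.78 ± 1.57, with the low first wtsP2 library apart from the other 3 libraries; the value was 0.04 without that library and -2.63 without the second.

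The head module, which docks on the polymerase, held the gene with the largest error, MED11, and a gene with well separated groups, MED28. MED28 (FBgn0039337; chromosome 3R, 21302725 to 21303467, plus strand), whose human counterpart also binds the Hippo pathway protein Merlin, was counted 13 and 11 times in wild-type and 231 and 230 times in wtsP2 libraries. That is 6.33 and 14.4 CPM against 66.2 and 64.1, with the groups far apart. The log2 fold change was 2.66 ± 1.31, a 6.33-fold difference (edgeR unadjusted p = 0.0950, adjusted p = 0.550). It was 2.18 when the first wild-type library was left out and 3.39 when the second was. With the first or the second wtsP2 library left out it was 2.66 and 2.68. The ratio of MED28 to MED14 counts was 0.0414 and 0.0894 in the wild-type libraries and 0.459 and 0.326 in those of wtsP2. In the authors' deposited table MED28 had means of 37.7 in wild type and 128 in wtsP2, a fold of 3.40.

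MED18 and MED20 encode a pair that sits together on the head in yeast. MED18 was counted 57 and 0 times in wild-type and 153 and 108 times in wtsP2 libraries, at 1.39 ± 2.28 (0.45 without the second wild-type library). MED20 was counted 0 and 71 times in wild-type and 36 and 88 times in wtsP2 libraries, at -1.41 ± 2.53. MED18 had no count in the second wild-type library and MED20 none in the first. MED11 and MED22 form another pair in yeast. MED11 was counted 0 and 17 times in wild-type and 125 and 8 times in wtsP2 libraries (0.79 ± 2.83; -0.22 with the first wild-type and -2.26 with the first wtsP2 library left out), and MED22 had 79 and 0 against 134 and 139 (0.98 ± 2.21; 0.04 without the second wild-type library). Neither gene separated the groups. MED19, known in flies as a partner of Hox and GATA factors, was counted 0 and 91 times in wild-type and 99 and 197 times in wtsP2 libraries, at -0.51 ± 2.25. The signs of MED19 and MED20 turned with the library left out. Without the first wild-type library both genes were lower in wtsP2, at -1.51 and -2.41. Without the second they were higher, where no wild-type count was left to form a fold.

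MED17, a central head subunit, was the best measured of the head by its error. It was counted 87 and 50 times in wild-type and 397 and 209 times in wtsP2 libraries, or 42.4 and 65.6 CPM against 114 and 58.3, at 0.68 ± 0.79 (0.14 without the first wtsP2 library). MED6 was counted 176 and 13 times in wild-type and 209 and 103 times in wtsP2 libraries, at -0.22 ± 1.22 (1.38 and -0.91 with the first and the second wild-type library left out). MED8 was counted 63 and 0 times in wild-type and 40 and 34 times in wtsP2 libraries, at -0.57 ± 2.45. MED30 had 17 and 0 against 85 and 25, at 1.85 ± 2.29. Its value was 0.96 without the second wild-type library and 0.76 without the first wtsP2 library. In all 3 of these genes a wild-type library exceeded a wtsP2 library or lay within the wtsP2 range.

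The middle module had a median log2 fold change of -0.10 over 8 genes, and its well-counted members lay near 0. MED1, a coactivator subunit that in flies works with the GATA factor Pannier in the notum, was counted 367 and 94 times in wild-type and 370 and 458 times in wtsP2 libraries. At 179 and 123 CPM against 106 and 128 its groups overlapped, and the log2 fold change was -0.37 ± 0.47 (edgeR adjusted p = 0.941). MED26, on the fourth chromosome (799080 to 809604, minus strand), was counted 862 and 119 times in wild-type and 1126 and 784 times in wtsP2 libraries. Its 420 and 156 CPM in wild type spanned the 323 and 219 of wtsP2, at -0.09 ± 0.58 (0.80 and -0.59 with the first and the second wild-type library left out). MED31 was counted 172 and 43 times in wild-type and 175 and 199 times in wtsP2 libraries, or 83.8 and 56.4 CPM against 50.2 and 55.5, with the lower wild-type value just above the higher wtsP2 value, at -0.41 ± 0.81 (-0.09 without the first wild-type library).

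The remaining middle genes are short and had a wild-type library at or near 0. MED7 and MED21 encode the partners of a long hinge described in yeast. MED7 was counted 1 and 19 times in wild-type and 113 and 114 times in wtsP2 libraries, at 0.487 and 24.9 CPM against 32.4 and 31.8. Its wtsP2 libraries were nearly equal and above both wild-type libraries, at 1.36 ± 2.21 (0.37 and 5.96 with the first and the second wild-type library left out). MED21 was counted 112 and 0 times in wild-type and 129 and 50 times in wtsP2 libraries, at -0.11 ± 2.36 (0.44 without the second wtsP2 library). Its feature lies on 3LHet, the heterochromatic part of chromosome 3L kept apart in that build. MED4 and MED9 form another pair in yeast. MED4 was counted 52 and 0 times in wild-type and 63 and 110 times in wtsP2 libraries, at 0.92 ± 2.43 (-0.02 without the second wild-type library). MED9, whose counts equal those of CG42518, had 214 and 1 against 142 and 121, at -0.51 ± 1.78 (4.78 without the first wild-type library). MED10 had 25 and 0 against 30 and 25, at 0.31 ± 2.05 (-0.60 without the second wild-type library). In MED9, MED10 and MED21 the first wild-type library was above both wtsP2 libraries once scaled.

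Set side by side, the medians of the log2 fold changes were 0.73 for the head, -0.10 for the middle, 0.93 for the tail and 0.27 for the kinase module, beside 0.24 for all tested genes. These medians moved with single libraries: without the first wild-type library they were 1.78, 2.79, 0.60 and 2.31, around a median of all genes of 1.33. The share of the Mediator counts that fell to each module within a library is free of scaling. The tail took 13.4% and 18.6% in the wild-type libraries and 17.8% and 25.1% in those of wtsP2. The kinase module took 19.0% and 22.4% in the wild-type libraries and 23.9% and 28.1% in those of wtsP2. It was the only module of the 5 whose groups did not overlap, but kto weighed heavily in it. In the wild-type libraries kto held 117 of 736 and 35 of 248 kinase module counts. In those of wtsP2 it held 778 of 1711 and 844 of 2225. The separation was not tested without kto and is not a result about the whole module. The head took 12.7% and 22.9% against 21.1% and 14.4%, and the middle 46.7% and 25.0% against 30.1% and 23.5%. The wild-type libraries thus differed from each other by more than the groups did in head and middle. Per kilobase the kinase module held 11.7% and 6.06% of the Mediator level in wild type, with 9.33% and 11.7% in wtsP2, and its groups overlapped on that scale.

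**Figure D3:**
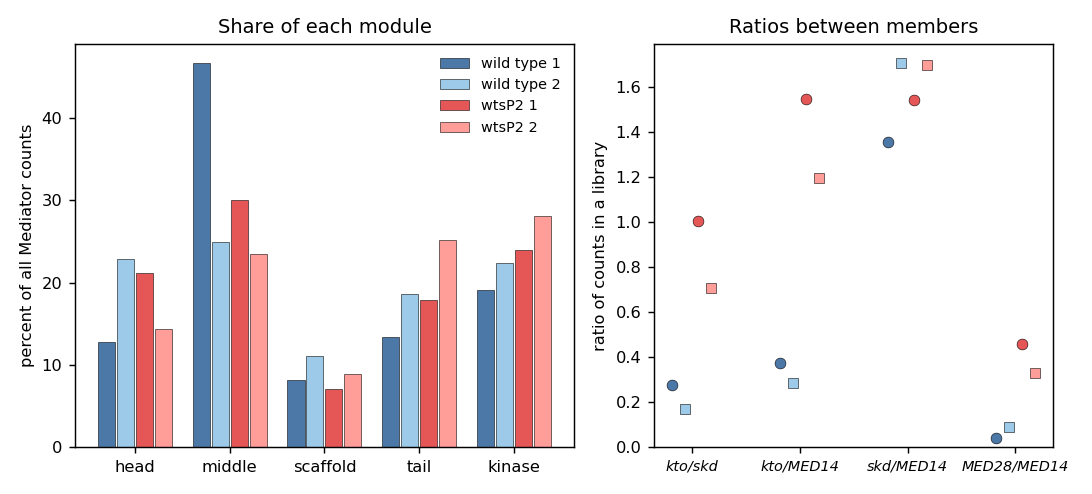
Left, bars give the percent of a library's Mediator counts that fell to each module; right, points give the ratio of counts between pairs of members within a library (blue shades, wild type; red shades, wtsP2; darker, replicate 1). The kto to skd ratio is 0.275 and 0.167 in the wild-type libraries and 1.00 and 0.705 in those of wtsP2, while the skd to MED14 ratio overlaps between the groups.

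The error of the members moved with gene length. Lengths ran from 600 bases (MED22) to 10894 (skd), with a median of 1128 against 2096 for all tested genes. Of the 12 members longer than 2000 bases 2 were at 0 in a wild-type library, and of the 17 shorter ones 11 were. The median SE was 0.58 among the longer members and 2.25 among the shorter ones. Across the 29 genes, which share their libraries, Spearman's rho was -0.694 between length and SE and 0.0502 between length and log2 fold change, beside 0.176 for length and log2 fold change over all tested genes. Among genes at least as long as MED26 (5150 bases), MED14, MED1, MED26 and skd lay within 1 SE of 0, while kto and MED23 did not.

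**Figure D4:**
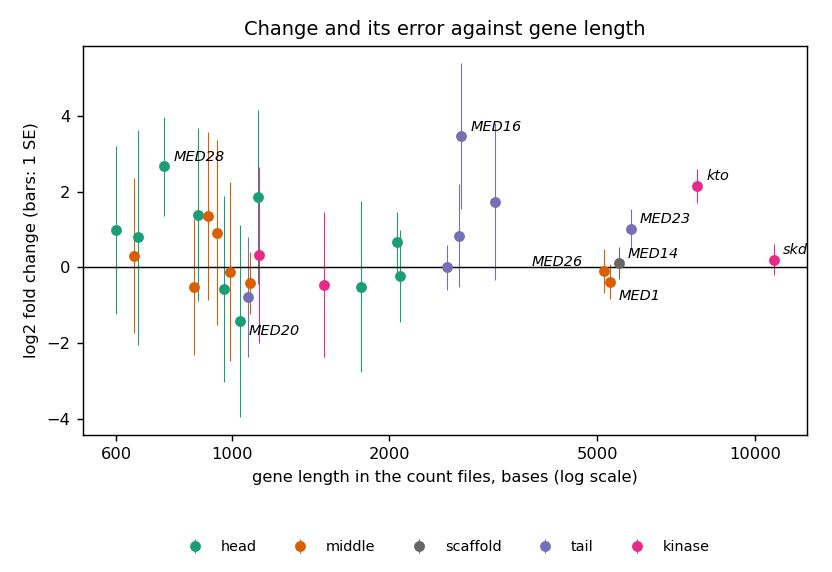
Log2 fold change of each Mediator gene with bars of 1 SE against the gene length in the count files (log scale), coloured by module. The median SE is 2.25 for genes up to 2000 bases and 0.58 for longer ones, although MED16 keeps a long bar, and among the long genes kto lies at 2.15 while skd lies at 0.21.

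Some members could not be counted on their own. In the count files 15 of the 29 overlap another feature, 12 on the opposite strand and 3 on the same strand, and the strand setting of the counting is not given in the sources used here. MED23 (chromosome 2R, 18776507 to 18783261) and CG3700 start at the same base and had equal counts in all 4 libraries. MED9 (chromosome 2R, 14054782 to 14055885) and CG42518 share their end and also had equal counts throughout. MED31 and slx1 share their start (chromosome 3R, 467696), where slx1 had 0, 43, 0 and 0 counts and MED31 172, 43, 175 and 199. The authors' deposited table lists exactly these 3 genes at 0 in both groups. Of the 28 members with at least 100 counts over the 4 libraries, 3 (10.7%) are listed at 0 there, and of all such features 463 of 6594 (7.02%) are. Of the 26 members with a fold in the authors' deposited table, 24 had the direction of the fit, while MED10 (0.79 there, 1.24 in the fit) and MED15 (0.82 there, 1.00 in the fit) did not. In the authors' deposited table kto had a fold of 4.03, skd 1.26, MED14 1.08 and MED16 10.7, beside 4.44, 1.15, 1.08 and 10.9 in the fit. The folds of 3 members, MED10, MED11 and MED28, differed by over 1.5 times between the authors' deposited table and the fit. For MED11 the authors' deposited table gives a fold of 29.7, from means of 1.33 and 39.5, where the count files gave 1.73.

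The machinery around Mediator was read from 6 further lists. Of 11 tested RNA polymerase II subunits, 14 TFIID subunits, 8 other general factors, 9 TFIIH subunits, 17 pausing and elongation factors and 12 factors known to work with the kinase module, 0 passed in edgeR in either direction. Their median log2 fold changes were 0.35, -0.04, 0.55, 1.00, 0.46 and -0.08. At an unadjusted p under 0.05 in edgeR, 1 TFIID, 1 TFIIH and 2 kinase-partner genes were higher and 1 general factor, 1 elongation and 1 kinase-partner gene lower, where 9.91% of all tested genes were higher and 2.65% lower. The gene of the largest polymerase subunit, Polr2A, was counted 605 and 368 times in wild-type and 2021 and 2658 times in wtsP2 libraries, at 0.77 ± 0.41. The gene of the large TFIIA subunit, TfIIA-L, had 345 and 252 against 141 and 136, at -2.67 ± 0.54 (edgeR adjusted p = 0.368). Among the partners, the receptor gene N (Notch), whose active form is known in mammals to be phosphorylated by CDK8 with cyclin C, was counted 917 and 227 times in wild-type and 3919 and 7759 times in wtsP2 libraries, at 2.14 ± 0.49 (edgeR adjusted p = 0.368), about the value of kto. The lower partner gene, srp, is also a haemocyte marker. The gene arm, which encodes the fly beta-catenin of Wingless signalling, had 1911, 515, 3683 and 3522 counts, at 0.34 ± 0.35.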

How the data were processed

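Counts of 4 wing disc libraries, 2 per group, were analysed. Per the labels' protocols, the library kit was SOLiD Total RNA-seq. The submitters' processing notes name HTSeq, DESeq and the builds BDGP5 and dm3, without roles. For aligner, strand setting and the assignment of shared reads the answer is not given in the sources used here. Per gene feature and library, the authors deposited a read count, a length and an RPKM value, and also a table of group means, which per the file headers are a DESeq signal, with their fold (wtsP2 over wild type). RPKM was used only as an alternative level.

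Symbols were matched by identifier. All features entered 1 fit in edgeR 4.0.16 (R 4.3.3): filterByExpr kept 7278 genes, TMM scaling, robust quasi-likelihood F test, Benjamini-Hochberg adjustment over all tested genes, threshold 0.05. The SE was obtained by dividing the log2 fold change by the root of F. Library totals ran from 696952 to 3846682, and intervals and floors of 3 counts cover counting error only. Alternatives used DESeq2 1.42.0, limma-voom (limma 3.58.1), other scalings and filters, protein-coding genes, the replicate block and each library left out. The fit was tested on simulated counts. Overlaps between features were read from the count files' coordinates. Any member could be named; of other lists, the 2 genes with the smallest p and the 2 with the highest level. The members and lists were chosen with earlier results of these data known.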

Additional observations from a re-analysis of the deposited data

How the results depend on the processing

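Scaling by RLE, upper quartile or library totals, the stricter filter, protein-coding genes alone and a threshold of 0.1 left 0 genes called. Genes called higher and lower were 21 and 16 with no filter, 96 and 86 in DESeq2, 123 and 27 in limma-voom, and 69 and 38 with the replicate block. Leaving out 1 library gave 3 to 2514 higher and 14 to 681 lower, and 0 to 13 Mediator genes called. Of the 13 without the first wild-type library, 8 had no wild-type count left, and of the 7 without the second, 3; in those fits 31.5% and 12.3% of tested genes were called higher and 8.53% and 5.67% lower. Same-numbered libraries did not deviate together (r = 0.00801), so the numbers are not taken as a pairing, and the replicate block called 0 Mediator genes.

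The median log2 fold change of all Mediator genes was 1.32 in limma-voom, 1.59 with the replicate block and 0.22 to 1.38 with a library left out. For head, middle, tail and kinase it was 1.73, 1.75, 1.15 and 1.29 in limma-voom and 2.25, 1.62, 1.06 and 1.29 with the replicate block, so the order of the modules changed, with the tail lowest in both. With a library left out it ran from 0.0283 to 1.78 for the head, -0.60 to 2.79 for the middle, 0.60 to 1.18 for the tail and -0.0744 to 2.31 for the kinase module. Over the 13 alternative fits (12 for MED10 and MED30, which did not pass the stricter filter), 13 members kept their sign and 16 did not; the cause was not tested.

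Signs turned as follows. MED15 was -0.0790 under RLE scaling, -0.0757 in DESeq2, -0.0860 under upper quartile scaling, -0.12 under library totals and -0.00425 under the stricter filter. In limma-voom MED8 was 2.45, MED19 1.02, MED9 1.74, MED21 3.21 and Cdk8 0.54. With the replicate block MED6 was 0.11, MED8 1.53, MED19 2.46, MED20 1.59, MED9 1.30, MED21 2.05, MED26 0.0491 and Cdk8 0.42. With a library left out, MED6 ran from -0.91 to 1.38, MED26 from -0.59 to 0.80, MED14 from -0.12 to 0.36, MED15 from -0.22 to 0.30, MED27 from -2.63 to 0.0374, skd from -0.11 to 0.50, Cdk8 from -1.29 to 2.30 and MED9 from -1.45 to 4.78. The upper ends had no wild-type count behind them, and are no bound, for MED8 (-1.51 to 7.78), MED11 (-2.26 to 8.87), MED19 (-1.51 to 9.997), MED20 (-2.41 to 8.74), MED4 (-0.0157 to 8.996), MED10 (-0.60 to 7.36), MED21 (-1.06 to 9.06) and CycC (-0.61 to 9.24).

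The second wild-type library was the shallowest, and a count of 0 there allows up to 3.94 CPM for counting error only. Thinned to its depth, the first wild-type library and the wtsP2 libraries would have 3.68, 0.00965 and 0.217 members at 0. The second wild-type library had 10, and the source of these zeros was not tested.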

Other observations

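The gene ix (intersex) encodes the fly MED29 and is not reached by the symbol rule. It was counted 68 and 0 times in wild-type and 82 and 67 times in wtsP2 libraries, for a log2 fold change of 0.33 ± 2.44 (edgeR adjusted p = 0.997), with the second wild-type library at 0 as in 10 of the 29 members. The TFIID gene Taf9 and the TFIIH gene Tfb4, named for small p-values, had no counts in either wild-type library and 82 and 59 (Taf9) and 32 and 27 (Tfb4) in wtsP2. Hexim, the gene of an inhibitor of the elongation kinase P-TEFb, was counted 90 and 134 times in wild-type and 18 and 45 times in wtsP2 libraries, at -3.62 ± 1.20 (edgeR adjusted p = 0.368), and lilli, for a scaffold of the super elongation complex, had 10 and 30 against 461 and 583, at 2.77 ± 1.12 (edgeR adjusted p = 0.407).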
